A study of Schizosaccharomyces pombe with 4 samples.

Results

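H3K9me3, the trimethylated form of lysine 9 on histone H3, was compared between clr3-CDx2 and wild-type (wt) fission yeast cells (Schizosaccharomyces pombe) after tetR-clr4 had been switched OFF. The comparison rests on 2 arrays, clr3-CDx2 OFF and wt OFF, of the 4 in the series. It takes in all 41551 genomic tiles that the probe names place, of which 40853 were unmarked on both arrays, and 4939 protein-coding genes with at least 2 such tiles. The other 2 arrays, clr3-CDx2 ON and wt ON, hold cells of the same genotypes before the switch and are given beside it. All 4 groups carry tetR-clr4, so wt is wild type at clr3 and not an unmodified strain. Cells were grown in minimal medium at 32 °C, for 20 generations without thiamine and then for 5 generations in 850 µg/ml 5-fluoroorotic acid, a compound toxic to cells that make the Ura4 enzyme, and ON cells were fixed at that point. OFF cells are the rest of the same cells, kept for 14 more generations in thiamine (5 µg/ml) plus tetracycline (2.5 µg/ml) before fixation. The labels do not say what change clr3-CDx2 names, which promoter drives tetR-clr4, where the protein is tethered, or how many clones or cultures an array stands for.

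In fission yeast, H3K9 methylation is laid down by a single enzyme, Clr4, whose chromodomain also binds the mark, so that a methylated stretch can serve as the template for its own renewal. The mark normally covers the pericentromeres, the silent mating-type region and the subtelomeres. Clr3 is the histone deacetylase of the SHREC complex and removes acetyl groups from histone H3 in these regions, and heterochromatin brought to a new site by a tethered Clr4 is normally lost within generations once the tether is released, unless factors that oppose the mark are missing.

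Each value is the log2 ratio of precipitated (ChIP) to whole-cell (input) DNA on a 60-mer tile, less the median tile of its array, so 0 is the typical tile and 1 is a ratio 2-fold above it. A region or gene is given as the median over its tiles. With 1 array per group there is no spread between replicates, and no test was possible. The differences, clr3-CDx2 minus wt, can be read only against the other tiles: over 39522 tiles of the chromosome arms they had a median of 0.02 and an SD of 0.314. In all, clr3-CDx2 OFF was at least 1 above wt OFF on 536 tiles (1.31%) and at least 1 below it on 297 (0.727%). With normexp background correction these counts were 1063 above and 1098 below, so the excess of higher tiles was not seen there. That correction starts from the median signal of each spot, not from the processed signal of the main values. The cause of the shift was not tested. In the ON pair 202 tiles (0.491%) were at least 1 higher in clr3-CDx2 and 373 (0.907%) at least 1 lower.

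The higher tiles lay in few places. A stretch of chromosome III around ura4, called the ectopic core because it carried the mark on both ON arrays and is no fixed heterochromatin region, held 81 of them among its 89 tiles. The right-hand 50 kb of chromosome I held 126 among 143 tiles, and the 39522 arm tiles held 187. None of the 272 pericentromeric tiles and none of the 92 tiles of the mating-type contig was at least 1 higher. Of the lower tiles, 217 lay in the arms, 48 at the left and 19 at the right end of chromosome III.

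**Figure D1:**
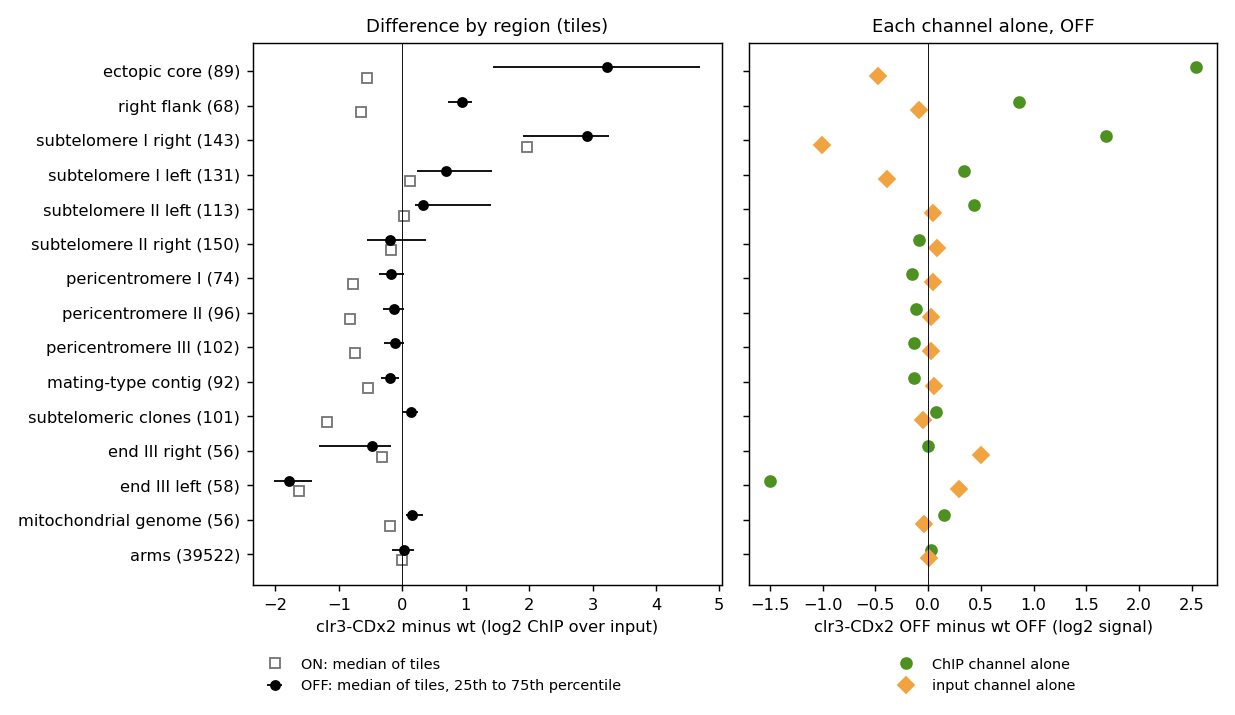
Left, the difference clr3-CDx2 minus wt (log2 ChIP over input) by region, with OFF as filled points (median of tiles, bars from the 25th to the 75th percentile) and ON as open squares (median), and the number of OFF tiles in brackets. Right, the OFF difference in the ChIP channel and in the input channel, each taken alone (log2 signal). The ectopic core (3.23) and subtelomere I right (2.92) stand apart in OFF, the pericentromeres lie between -0.18 and -0.12, and the core is below 0 in ON (-0.55).

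3 of the loci at which the difference was largest are shown by the bases just before their annotated transcript start, since each stretch holds a tile of its own. They are read 5′ to 3′ along the gene from the RefSeq genome ASM294v3: chrIII:119000-119249 on the minus strand for pmp20, chrIII:116626-116875 on the minus strand for ura4 and chrIII:1316031-1316280 on the plus strand for ade6. Capitals mark TGACGT, the site bound by the stress factor pair Atf1-Pcr1, and TATAAA, the TATA box, on either strand. Matches on both strands overlap in pmp20, where they form TGACGTCA, and in ura4, where they form TTTATAAA.
pmp20: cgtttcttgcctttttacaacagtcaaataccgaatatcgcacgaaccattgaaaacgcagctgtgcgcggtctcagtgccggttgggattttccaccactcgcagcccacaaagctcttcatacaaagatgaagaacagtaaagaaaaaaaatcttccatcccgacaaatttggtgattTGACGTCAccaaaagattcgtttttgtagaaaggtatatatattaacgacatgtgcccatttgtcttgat
ura4: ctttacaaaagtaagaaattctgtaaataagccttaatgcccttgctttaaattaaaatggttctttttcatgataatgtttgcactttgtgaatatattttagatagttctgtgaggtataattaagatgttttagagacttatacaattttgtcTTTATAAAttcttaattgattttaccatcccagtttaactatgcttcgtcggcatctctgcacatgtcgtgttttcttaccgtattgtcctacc
ade6: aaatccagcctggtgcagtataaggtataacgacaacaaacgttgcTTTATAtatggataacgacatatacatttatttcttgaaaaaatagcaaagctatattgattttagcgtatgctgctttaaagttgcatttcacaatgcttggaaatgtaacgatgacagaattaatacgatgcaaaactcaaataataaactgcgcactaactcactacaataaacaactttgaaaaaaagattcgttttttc
Of 3321 such stretches of 250 bases in the genome, 5.78% hold TGACGT and 44.5% hold TATAAA. A match is a string of letters and no measured site, and the strains' own sequence may differ from this genome. The tile in the pmp20 stretch read 4.64 in clr3-CDx2 OFF and -1.31 in wt OFF. In the ura4 stretch the tile read 4.24 in clr3-CDx2 OFF and -0.45 in wt OFF, and in the ade6 stretch 3.88 in clr3-CDx2 OFF and 0.30 in wt OFF. All 3 tiles thus lay well above the array median in clr3-CDx2 OFF and near or below it in wt OFF.

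The ectopic core spans 27.3 kb of chromosome III, array positions 99300 to 126300, and was delimited on the ON arrays alone. Its 89 tiles had a median of 2.98 in clr3-CDx2 OFF and 0.14 in wt OFF, and the median difference was 3.23 (9.40-fold), with the 25th and 75th percentiles of the tiles at 1.43 and 4.70. Every one of them read higher in clr3-CDx2 OFF, by 0.56 to 6.14. In the ON pair the same core read 2.67 in clr3-CDx2 and 3.22 in wt, a difference of -0.55. The core is marked on both ON arrays by the way it was chosen, so only the 2 OFF arrays were free to differ in this. Of these, clr3-CDx2 OFF had a marked core and wt OFF did not, with a single run of 1.5 kb past 1 left.

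The difference was uneven along the core. In 3-kb steps from its left edge at 99000 it was 0.92, 1.30, 2.34, 3.43, 3.60 and 3.87, reached 5.95 between 117000 and 120000 and 5.00 in the next step, and dropped to 1.89 from 123000 and to 1.04 from 126000. The steep right side lies between SPCC330.07c and alg11. In clr3-CDx2 OFF the highest step was 4.84, from 120000, and the lowest in wt OFF was -1.32, from 117000, over pmp20. The peak of the difference thus joins a high stretch in clr3-CDx2 OFF to the lowest stretch of the core in wt OFF.

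**Figure D2:**
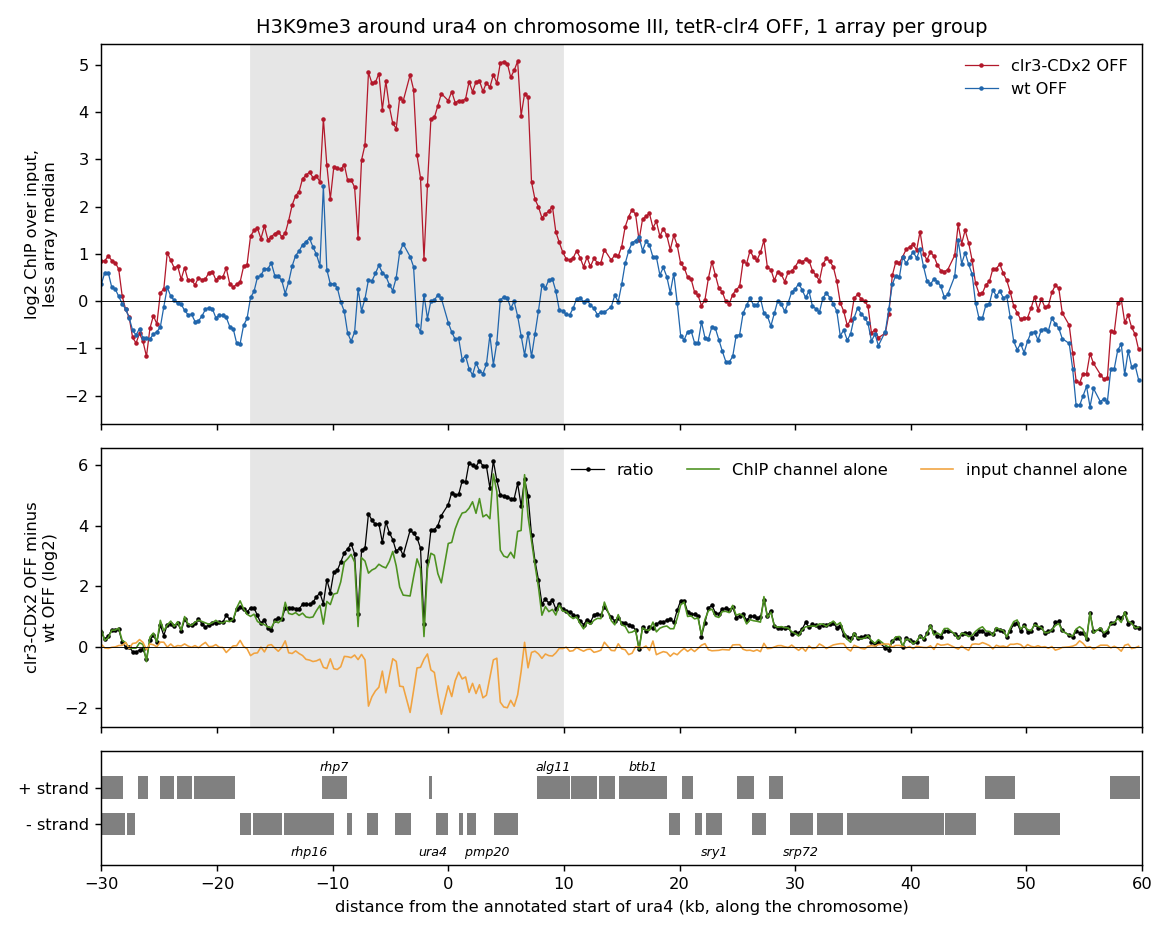
Tiles around ura4 by distance from its annotated start (kb), with the core shaded. Top, log2 ChIP over input in clr3-CDx2 OFF (red) and wt OFF (blue). Middle, clr3-CDx2 OFF minus wt OFF for the ratio and for the ChIP and input channels alone (log2), and bottom, protein-coding genes by strand. The red line lies above the blue one over the whole core and over most of the right flank, and the input line drops below 0 where the ratio is highest.

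Of the 10 genes measured in the core, 9 were counted as higher, that is at least 1 higher and at 1 or more on an OFF array, against 36 of 4939 genes in all (0.729%). No gene was counted as lower (0.0%). pmp20, which encodes a peroxiredoxin-family protein, read 4.54 in clr3-CDx2 OFF and -1.5 in wt OFF on 2 tiles, a difference of 6.03 (65.5-fold) and the largest of all genes. SPCC330.07c read 5.03 in clr3-CDx2 OFF and -0.01 in wt OFF over 7 tiles, whose differences ranged only from 4.89 to 5.49. SPCC330.03c read 4.63 in clr3-CDx2 OFF and 0.45 in wt OFF. All 3 genes thus read above 4 in clr3-CDx2 OFF and near the array median or below it in wt OFF.

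ura4 encodes orotidine 5′-phosphate decarboxylase of uracil synthesis, the enzyme that makes 5-fluoroorotic acid toxic. Its 2 unmarked tiles read 4.13 and 4.39 in clr3-CDx2 OFF, against 0.13 and 0.06 in wt OFF, and its difference was 4.17 (18.0-fold). On the ON arrays ura4 read 3.20 in clr3-CDx2 and 3.64 in wt. ura4 was thus near the array median in wt OFF and not in clr3-CDx2 OFF, while the core in which it lies was chosen as marked on both ON arrays.

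To the left of ura4, mug135, a gene known from its rise in meiosis, read 4.27 in clr3-CDx2 OFF and 0.99 in wt OFF (difference 3.28), and SPCC330.19c read 2.56 in clr3-CDx2 OFF and -0.76 in wt OFF (3.32). rhp7 and rhp16 both encode nucleotide excision repair proteins, and their annotated transcripts overlap, so that some tiles may count for both. Over rhp7 the values were 2.83 in clr3-CDx2 OFF and 0.37 in wt OFF (2.47), and over rhp16 2.56 in clr3-CDx2 OFF and 0.98 in wt OFF (1.58). At the right edge alg11, a mannosyltransferase gene of protein glycosylation, read 1.61 in clr3-CDx2 OFF and 0.01 in wt OFF (1.60).

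Right of the core lies the stretch that the mark had reached in wt ON but, as an unbroken run, not in clr3-CDx2 ON. Its 68 tiles read 0.84 in clr3-CDx2 OFF and -0.08 in wt OFF, a median difference of 0.95 (1.94-fold), and 98.5% of them were higher in clr3-CDx2 OFF. In the ON pair the flank read 1.05 in clr3-CDx2 and 1.78 in wt, a difference of -0.65, whose sign is partly fixed by how the flank was delimited. Of its 11 genes 1 was counted, sdh3, a subunit gene of succinate dehydrogenase, with 1.18 in clr3-CDx2 OFF and 0.18 in wt OFF (1.0). All 11 differed in the same direction, by 0.62 to 1.21.

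The flank genes below the count show how far the difference reached. sry1, which encodes serine racemase, read 0.52 in clr3-CDx2 OFF and -0.69 in wt OFF (1.21), although on the ON arrays it read 2.84 in clr3-CDx2 and 3.31 in wt. atp23, a mitochondrial protease gene, read 0.98 in clr3-CDx2 OFF and -0.08 in wt OFF (1.06), and ark1, the Aurora kinase gene, 0.84 in clr3-CDx2 OFF and -0.09 in wt OFF (0.93). btb1 was the highest of the flank genes in both, with 1.63 in clr3-CDx2 OFF and 1.0 in wt OFF. Beyond the flank the 3-kb difference was 0.73 from 147000, 0.36 from 150000 and 0.17 from 153000, and on the left side 0.89 from 96000, 0.75 from 93000, 0.38 from 90000 and 0.09 from 87000. The 3-kb steps between 165000 and 177000 still differed by 0.50 to 0.77.

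ade6, which encodes an enzyme of adenine synthesis and serves as a colony-colour marker, lies on the same chromosome far from the core, where a run of higher tiles spans array positions 1316700 to 1318800. Over its 5 unmarked tiles it read 3.68, 4.0, 4.31, 4.04 and 4.50 in clr3-CDx2 OFF, against 0.24, 0.63, 0.69, 0.46 and 0.58 in wt OFF. The gene's difference was 3.46 (11.0-fold), and on the ON arrays it read 2.36 in clr3-CDx2 and 3.64 in wt. The nearest 10 tiles left of ade6 differed by a median of 0.15, with the tile of the printed stretch at 3.57 among them, and the nearest 10 on the right by -0.36, at most -0.06. The higher signal thus covered the gene and the stretch before it and ended at both sides within a few tiles. A tile reads every copy of its sequence, and the labels do not say whether the strains carry another copy of ade6 or ura4. leu1 and his3, common marker genes too, differed by 0.26 and -0.33.

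Subtelomere I right, the last 50 kb of chromosome I, read 4.54 in clr3-CDx2 OFF and 1.75 in wt OFF, a median difference of 2.92 (7.58-fold). Tiles whose sequence occurs more than once cannot be assigned to one chromosome end, so the 92 unique tiles were also taken alone. They read 4.58 in clr3-CDx2 OFF and 1.42 in wt OFF and all 92 were more than 1 higher, by 2.06 to 4.0. The 51 repeated tiles read 4.18 in clr3-CDx2 OFF and 2.44 in wt OFF (1.48). In the ON pair the same region read 2.89 in clr3-CDx2 and 0.92 in wt (1.97), so here, unlike in the core, clr3-CDx2 was the higher genotype in both states.

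The difference formed a plateau with a slope on both sides. It was 3.43 in the 3 kb from 5532000 and 3.14 in those from 5547000, and towards the telomere it was 2.02 from 5556000, 1.38 from 5565000 and 0.44 from 5574000. In the last of these steps both arrays were high, with 5.28 in clr3-CDx2 OFF and 5.05 in wt OFF. Towards the centromere it was 2.02 from 5523000, 1.02 from 5517000 and -0.02 from 5502000. The longest run of higher tiles anywhere, 141 tiles over 46.5 kb from 5520000 to 5566200, lay here.

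**Figure D3:**
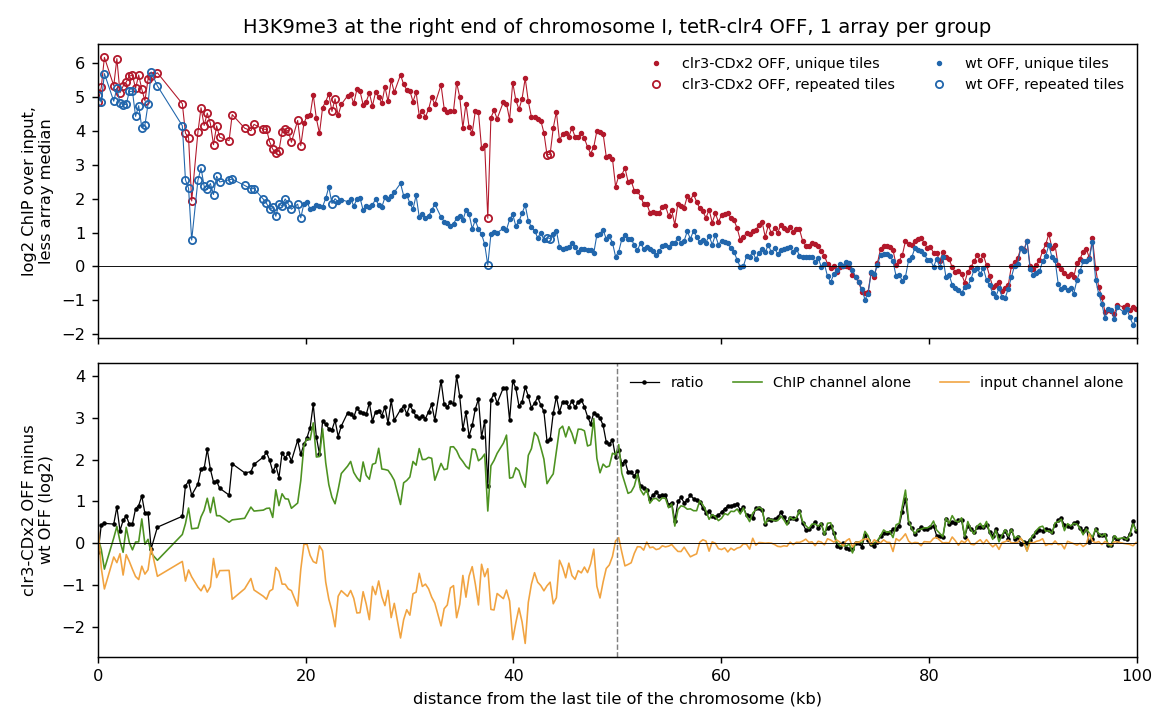
Tiles of the last 100 kb of chromosome I by distance from the last tile (kb), with unique tiles filled and repeated tiles open. Top, log2 ChIP over input in clr3-CDx2 OFF (red) and wt OFF (blue), and bottom, clr3-CDx2 OFF minus wt OFF for the ratio and for each channel alone (log2), with a dashed line at 50 kb. The lines come close near the telomere, lie about 3 apart over the unique tiles on the telomere side of the dashed line, and draw together inward of it. Of the 309 tiles plotted, 295 read higher in clr3-CDx2 OFF.

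Of 14 genes in this subtelomere 12 were counted as higher. SPAC186.07c, with 5.00 in clr3-CDx2 OFF and 1.39 in wt OFF (3.61, 12.2-fold), differed most. gdt1, which encodes a Golgi membrane transporter family protein, read 4.49 in clr3-CDx2 OFF and 1.0 in wt OFF (3.49), and pdc102, a pyruvate decarboxylase gene, 4.98 in clr3-CDx2 OFF and 1.78 in wt OFF (3.20). These 3 genes hold unique tiles only. SPAC186.06 (3.45), SPAC186.04c (3.40), SPAC186.08c (3.19), SPAC186.03 (2.79), SPAC750.01 (2.74) and SPAC186.02c (2.65) differed by nearly as much. The counted genes SPAC750.02c (2.16), SPAC750.06c (1.61) and ftm4 (1.53) hold repeated tiles only, so whether they report this end cannot be told. In the ChIP channel alone they differed by 0.96, 0.40 and 0.53, and in the input by -0.99, -1.05 and -0.99. The 2 genes nearest the telomere were not counted: SPAC750.07c read 5.44 in clr3-CDx2 OFF and 4.58 in wt OFF, and SPAC750.08c 5.28 in clr3-CDx2 OFF and 5.05 in wt OFF. Just beyond the 50-kb limit, on the centromere side, pfl9, a cell-surface flocculin gene, read 2.61 in clr3-CDx2 OFF and 0.81 in wt OFF (1.80), and SPAC869.01 1.93 in clr3-CDx2 OFF and 0.84 in wt OFF (1.09).

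**Figure D4:**
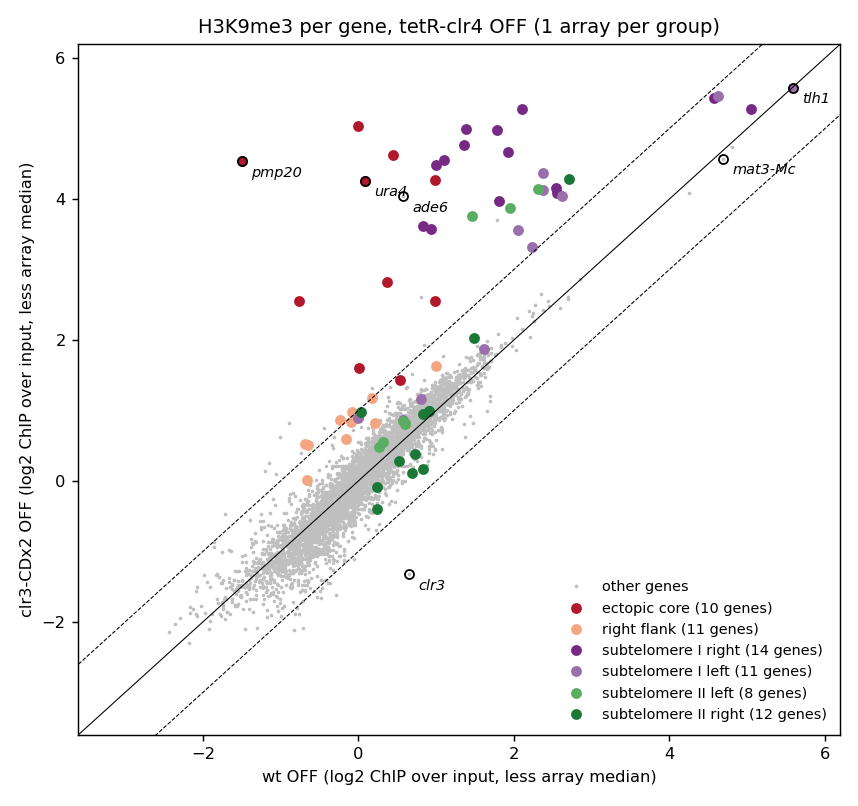
Each gene's H3K9me3 (log2 ChIP over input) in clr3-CDx2 OFF against wt OFF, coloured by region, with the line of equal values and dashed lines 1 above and 1 below it. Most genes of the ectopic core (9 of 10) and of subtelomere I right (12 of 14) lie above the upper dashed line, tlh1 and mat3-Mc lie close to the line of equal values, and clr3 lies farthest below the lower one.

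At the other ends of chromosomes I and II the difference was smaller. Subtelomere I left read 3.64 in clr3-CDx2 OFF and 2.02 in wt OFF, with a median difference over tiles of 0.69, and 120 of its 131 tiles are repeated. The median difference was 0.63 on these repeated tiles and 0.89 on the 11 unique ones, which read 5.22 in clr3-CDx2 OFF and 4.36 in wt OFF. There, tlh1, the telomere-linked helicase gene at the very end, read 5.58 in clr3-CDx2 OFF and 5.59 in wt OFF (-0.02), while ftm2, farther in, read 4.37 in clr3-CDx2 OFF and 2.37 in wt OFF (2.00). 5 of its 11 genes were counted: ftm2, SPAC977.18 (1.74), SPAC212.04c (1.51), ftm1 (1.42) and SPAC977.06 (1.09). On the ChIP channel alone these 5 differed by 0.24 to 0.84, so none reached 1, and in the input by -1.22 to -0.82. The 11 unique tiles differed by 0.19 in the ChIP channel and by -0.65 in the input. tlh1 thus read alike in both genotypes and the counted genes behind it did not. All of these genes hold repeated tiles only, save SPAC212.04c (4 of 5 tiles), so whether their values report this chromosome end cannot be told.

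In chromosome II the 46 repeated tiles of the left subtelomere read 3.47 in clr3-CDx2 OFF and 1.70 in wt OFF (1.49), but its 67 unique tiles 0.66 in clr3-CDx2 OFF and 0.43 in wt OFF (0.25). On the right, the 44 repeated tiles read 3.51 in clr3-CDx2 OFF and 1.63 in wt OFF (1.29), and the 106 unique tiles 0.07 in clr3-CDx2 OFF and 0.53 in wt OFF (-0.40). The counted genes there, SPBC1348.05 (2.31), ftm6 (1.94), ftm5 (1.83) and SPBCPT2R1.01c (1.58), hold repeated tiles only. In the ChIP channel alone the repeated tiles differed by 0.71 on the left and 0.63 on the right. Their input differed by -0.74 and -0.62. Whether the repeated tiles report these ends or the right end of chromosome I cannot be told apart.

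The pericentromeres and the mating-type region read nearly alike in the OFF pair. Marked spots took out a larger share of tiles here than over the whole array. The pair kept 272 of 360 pericentromeric tiles and 92 of 110 on the mating-type contig, against 40853 of 41551 in all. Over the 272 pericentromeric tiles the median was 2.18 in clr3-CDx2 OFF and 2.14 in wt OFF, with a median difference of -0.14. By chromosome the difference was -0.18 on I, -0.13 on II and -0.12 on III. Repeated tiles there differed by -0.13 and unique ones by -0.17. The mating-type contig read 1.36 in clr3-CDx2 OFF and 1.85 in wt OFF, with a median difference of -0.20. Within it the 3-kb steps from 21000 to 36000 read between 5.13 and 6.18 in clr3-CDx2 OFF and between 5.15 and 6.21 in wt OFF. Of 4 silent mating-type genes listed, only 1, mat3-Mc, was measured, and it read 4.57 in clr3-CDx2 OFF and 4.69 in wt OFF. Its 2 tiles are both repeated, so they may read other copies. In the ON pair clr3-CDx2 was lower in both, with a difference of -0.78 at the pericentromeres and of -0.54 on the mating-type contig. The 10 measured Tf2 retrotransposons of 13, all on repeated tiles, had a median of 2.36 in clr3-CDx2 OFF and 2.24 in wt OFF and differed by -0.17 to 0.28.

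The ratio combines both channels, and the input channel moved with the result. In the ectopic core the ChIP signal alone differed by 2.54 and the input by -0.48, and in subtelomere I right the ChIP signal differed by 1.69 and the input by -1.01. For ura4 the ChIP difference was 2.27 and the input difference -1.90, for ade6 1.79 and -1.65, and for pmp20 4.68 and -1.35. Of the 349 higher tiles outside the arms 97.1% had a lower input in clr3-CDx2 OFF, against 69.5% of the 187 in the arms and 46.3% of all tiles. Among the 297 lower tiles the share was 21.9%. Higher and lower tiles were picked by the ratio, which a lower input raises, so the choice partly fixes these shares. In the right flank the input differed by only -0.09 and at the pericentromeres by 0.03. On the ChIP channel alone the core and subtelomere I right thus stayed higher, by less; the part of the input in the ratio was not tested.

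The clr3 gene itself was lower. Over its 8 tiles it read -1.32 in clr3-CDx2 OFF and 0.65 in wt OFF, a difference of -1.97 with single tiles from -2.44 to -1.16, and -1.39 in clr3-CDx2 ON against 0.55 in wt ON (-1.94). Its ChIP signal differed by -1.61 and its input by 0.36 in OFF. The nearest 10 tiles differed by a median of -0.46 on the left and -0.38 on the right. The difference was thus present in both states, and no gene measured was lower by more in OFF.

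Genes of the heterochromatin machinery were taken as lists and read against the median of 0.02 over all genes. None of the genes below was counted in either direction. In SHREC, clr1 (0.12) and the remodeller gene mit1 (-0.02) differed little, and clr2 read 0.23 in clr3-CDx2 OFF and 0.88 in wt OFF (-0.65). In CLRC, the complex in which Clr4 works, clr4 read 1.41 in clr3-CDx2 OFF and 1.15 in wt OFF (0.26), rik1 differed by 0.03, raf2 by -0.05, the cullin gene cul4 by -0.04 and the adaptor gene stc1 by 0.44. The reader genes swi6, chp1 and chp2 differed by -0.07, -0.07 and -0.18. The 9 RNA interference genes, ago1, dcr1 and rdp1 among them, had a median difference of 0.10 and ranged from -0.03 to 0.37. The 5 genes of other histone deacetylases, such as clr6 and sir2, ranged from 0.09 to 0.22. Among 5 anti-silencing genes, which code for factors that oppose the mark, epe1, a JmjC-domain protein gene, read 1.20 in clr3-CDx2 OFF and 1.13 in wt OFF, and the list ranged from -0.23 to 0.10. Meiotic genes in facultative heterochromatin, 9 of 10 measured, had a median of 0.02, with mei4 at -0.24, ssm4 at 0.02 and mug8 lowest at -0.52. The 11 euchromatic control genes, act1 among them, had a median difference of -0.05 and ranged from -0.64 to 0.65.

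Outside these regions 13 runs of higher tiles, 32.7 kb in all, and 4 runs of lower tiles, 9.0 kb in all, lay in the arms. The longest higher runs were 4.2 kb over agl1, an alpha-glucosidase gene, with 1.19 in clr3-CDx2 OFF and -0.06 in wt OFF, and 4.2 kb over ght1, a hexose transporter gene, with -0.04 in clr3-CDx2 OFF and -1.27 in wt OFF. fet4, a metal ion transporter gene, followed with 0.80 in clr3-CDx2 OFF and -0.90 in wt OFF over 3.3 kb. Others lay over ade6, over SPAC869.01 beside subtelomere I right, over gcd1, a glucose dehydrogenase gene, the iron transport oxidase gene fio1, the siderophore transporter gene str1, the invertase gene inv1, SPCC794.04c, eis1, SPBPB21E7.09 and the pair SPCC1235.18 and SPCC1235.17. The 4 lower runs lay over clr3, over glt1, which encodes glutamate synthase, over cpc2, a ribosome-bound RACK1 protein gene, and over the neighbours rps27 and rps29.

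Regardless of level, 48 genes were at least 1 higher (0.972%) and 15 at least 1 lower (0.304%). The 7 arm genes that were higher but below 1 on both OFF arrays were fet4 (1.71), SPCC794.04c (1.63), ght1 (1.40), gcd1 (1.34), str1 (1.25), fio1 (1.16) and SPCC1529.01 (1.14), and in all 7 wt OFF was the lowest of the 4 arrays. The 14 lower genes besides clr3, led by rpl1201 (-1.38), rps27 (-1.32), cpc2 (-1.28) and rps13 (-1.18), had wt OFF as the highest array in all 13 that were read on all 4. Over all genes wt OFF was lowest in 1490 and highest in 1366 of the 4933 read on all 4. Both sets were picked by the OFF difference, which partly fixes the place of wt OFF among the arrays, so these counts describe the sets only.

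These genes led to 3 further lists, drawn up after their values had been seen, which therefore support nothing. Of 129 ribosomal protein genes 110 were measured, with a median of -1.06 in clr3-CDx2 OFF and -0.44 in wt OFF, and of -1.14 in clr3-CDx2 ON and -0.97 in wt ON. Their median difference in OFF was -0.60, 107 were below 0 and 11 at least 1 lower, and wt OFF was highest in 103 of the 109 read on all 4 arrays. Of all 4939 genes, 2234 were below 0, 2610 above 0 and 15 at least 1 lower. Among the 4933 of them read on all 4 arrays, wt OFF was highest in 1366. The 8 iron uptake genes had a median of 0.02 in clr3-CDx2 OFF and -0.98 in wt OFF (0.75), with frp1, a ferric reductase gene, at 0.72 and fip1, an iron permease gene, at 0.78, and str2 at -0.06. The 12 genes of sugar uptake and use read 0.20 in clr3-CDx2 OFF and -0.58 in wt OFF (0.51), all 12 above 0, among them the hexose transporter gene ght5 at 0.71. Nearly all of these values lie below 1 on each array. The ChIP channel alone differed by a median of -0.57 for the ribosomal protein, 0.75 for the iron and 0.46 for the sugar genes, and the input by 0.03, 0.02 and -0.03 for the same lists.

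**Figure D5:**
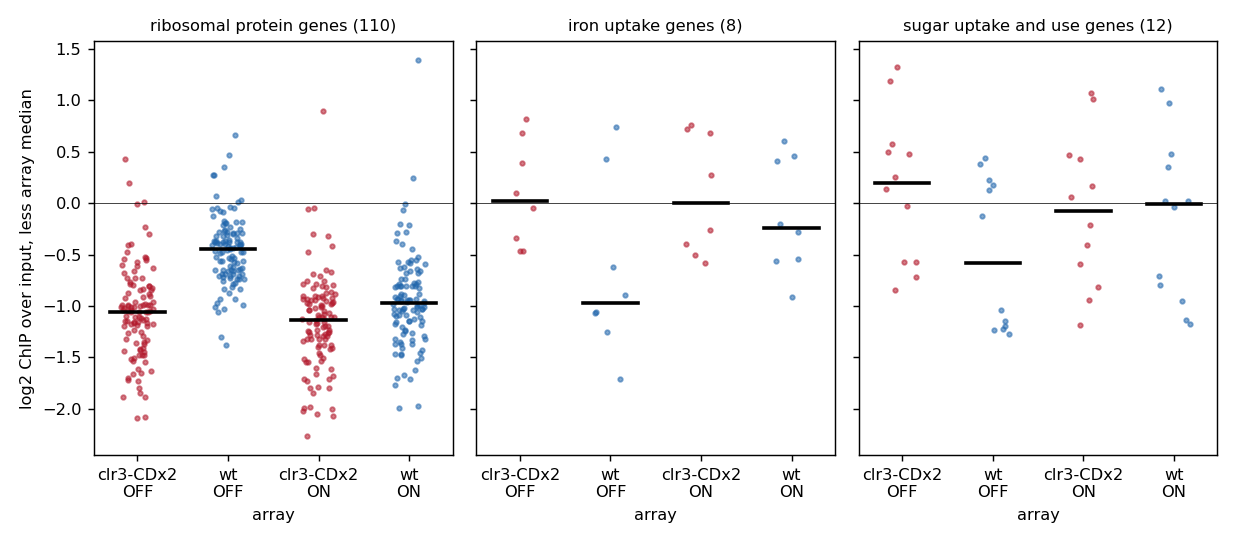
Each point is a gene's log2 ChIP over input on 1 array, in the order clr3-CDx2 OFF, wt OFF, clr3-CDx2 ON and wt ON, for 110 ribosomal protein, 8 iron uptake and 12 sugar genes, and bars are medians. For the ribosomal protein genes wt OFF (-0.44) lies above the 3 other arrays, and for the iron and sugar genes it lies below them (-0.98 and -0.58).

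The ends of chromosome III, next to the ribosomal DNA repeats, held most of the other lower tiles, and 11 more lay among the 101 tiles of subtelomeric clones. The left end, all of it repeated tiles, read -1.62 in clr3-CDx2 OFF and 0.17 in wt OFF (-1.78), and 48 of its 58 tiles were at least 1 lower. The right end read -1.13 in clr3-CDx2 OFF and -0.52 in wt OFF, a median difference of -0.47, which was -0.80 on its 40 repeated and -0.10 on its 16 unique tiles. In the ChIP channel alone the left end differed by -1.5 in OFF, but the right end by 0.0. The input differed by 0.29 on the left and by 0.5 on the right. On the right end's repeated tiles the ChIP channel differed by -0.24 and the input by 0.44, and on its unique tiles by 0.56 and 0.63. On the ON arrays the differences in the ratio were -1.63 on the left and -0.32 on the right, so the ratio at each end differed in the same direction before the switch.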

How the data were processed

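The 4 arrays hold ChIP DNA in Cy5 (red) and input DNA in Cy3 (green), per the labels. The authors scanned them with Agilent Feature Extraction 12.0.3.1, and per the file headers the files give each spot's intensity, a dye-normalised processed intensity per channel (linear, no intensity-dependent step) and a log10 ratio. The deposited value table is the uncentred log2 ratio: it equals the log2 ratio of processed signals to within 0.01 on all 41551 tiles of each array, with array medians of 0.1846 (clr3-CDx2 OFF), 0.1734 (wt OFF), 0.2965 (clr3-CDx2 ON) and 0.2336 (wt ON). The genome build of the array design is not given in the sources used here.

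The value analysed was log2 of the processed red over green signal, 1417 control spots left out, less each array's median, with no loess or quantile step. Tiles marked non-uniform on either array of a pair (clr3-CDx2 OFF 578 spots, wt OFF 190, clr3-CDx2 ON 194, wt ON 261) were left out of that pair, so both values come from the same tiles. No tile was saturated. Median signals were 136.6 to 166.3 times background in the ChIP and 417.1 to 489.6 times in the input channel. The number of arrays limits the precision. All 4 arrays were on 1 slide in 1 scan.

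Printed positions are those of the array. To assign tiles to ASM294v3 genes, an offset per chromosome arm (-1675 to 4475 bp) was applied at which input signal followed GC content best (r from 0.211 to 0.254, at most 0.097 beyond 1 kb), so gene edges are uncertain by about a tile. Repeated tiles are those so named or with at least 50% of the 31-mers found more than once in a window reaching past the tile's estimated place on both sides. The tile's own sequence was not read for this, so a tile near the border of a repeat may be classed wrongly. A run is at least 5 tiles past 1 after a running median of 3, with a gap of 1 tile allowed. Subtelomeres are the outer 50 kb of chromosomes I and II, chromosome III ends the outer 25 kb, and pericentromeres the longest gene-free intervals.

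Genes named are the 15 largest rises and 10 largest falls among counted genes, all core genes, clr3, ade6, list members and genes under the 10 longest runs in each direction outside the fixed regions. Other genes, among them those of the flank and the remaining counted ones, were named after their values were seen. Of the genes this covers, 1 is not reported here. Members and lists were chosen with earlier results of these data known. Alternatives were 2 other centrings, marked spots kept, limma's normexp (on median spot signals, a departure from the planned mean signals), ChIP alone, equal pericentromeric signal, no repeated tiles, and other cuts and summaries. Recovery of planted shifts by runs and medians was checked on simulated data. The noise there was independent between tiles, so it does not test how many runs real data give without a shift. Python 3.11.15, numpy 2.4.6, pandas 2.3.3, matplotlib 3.10.9, R 4.3.3 and limma 3.58.1 were used.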

Additional observations from a re-analysis of the deposited data

Results flagged for a closer look

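These results differed in direction between the switch states, with clr3-CDx2 above wt in OFF and below it in ON; each side had 1 array per genotype, and the difference between states was not tested. The ectopic core differed by 3.23 in OFF and by -0.55 in ON, and the right flank by 0.95 in OFF and -0.65 in ON. The flank was delimited as marked in wt ON beyond the end of the clr3-CDx2 ON run. That choice partly fixes the sign of its ON difference, so its change of direction is no separate result. Among genes, SPCC330.07c differed by 5.03 in OFF and -0.90 in ON, SPCC330.03c by 4.18 in OFF and -0.73 in ON, ade6 by 3.46 in OFF and -1.28 in ON, and mug135 by 3.28 in OFF and -1.14 in ON. SPCC330.07c, SPCC330.03c and mug135 lie in the core. The lower ON values were not particular to these results. In ON the pericentromeres differed by -0.78, the mating-type contig by -0.54 and the subtelomeric clones by -1.19. The subtelomeres of chromosomes I and II ranged from -0.18 to 1.97 in ON.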

How the results depend on the processing

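Of the values that answer the comparison, 92 recomputed under an alternative stayed within 1.5 times the main value (differences under 0.5, within 0.25 of it) and 16 moved. The core ranged from 2.54 to 3.86 and kept its direction under each alternative run. Normexp correction gave 1063 higher and 1098 lower tiles, 42 higher and 49 lower runs and 3 lower genes. It also turned the sign at spo5 (-0.10), adh1 (-0.16) and leu1 (-0.03). The ChIP channel alone gave 1.69 for subtelomere I right and 0.34 for subtelomere I left, and put sir2 (-0.27), mcp7 (-0.19), Tf2-3 (-0.21) and Tf2-9 (-0.26) below 0. Without repeated tiles 5 lower runs were left, and with at least 4 tiles a gene 19 higher genes, since fewer tiles or genes enter. With no enrichment required 15 genes were lower. At a cut of 1.5 there were 294 higher and 86 lower tiles, and 8 higher and 6 lower runs. The difference of medians was 1.62 for subtelomere I left and -0.49 for the mating-type contig, and the mean over tiles was 0.07 for subtelomere II right. The cause of the normexp and ChIP-channel shifts was not tested. Centring on the mode, which lay 0.06 above the median on both OFF arrays, and scaling to equal pericentromeric signal, a factor of 1.04, moved none of the values that answer the comparison past those limits. No paired analysis was possible because each group has 1 array and the labels give no replicate numbers. With 1 array per group a difference between genotypes cannot be told apart from one between these cultures, precipitations or labellings.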

Other observations

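Several genes of thiamine synthesis and uptake, which cells turn down when thiamine is supplied, differed more between the switch states than between the genotypes. In OFF, nmt1, a thiamine synthesis gene, read 0.42 with clr3-CDx2 and 0.14 with wt, and in ON -2.73 with clr3-CDx2 and -2.23 with wt. The transporter gene thi9 read 0.38 with clr3-CDx2 and -0.02 with wt in OFF, and -2.24 with clr3-CDx2 and -1.79 with wt in ON. For thi2 the values were 0.27 with clr3-CDx2 and 0.26 with wt in OFF, and -2.65 with clr3-CDx2 and -2.42 with wt in ON. Over the 8 genes of that list the median difference in OFF was 0.08.

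In subtelomere II right the unique tiles had their lowest 3-kb difference, -0.89, from 4473000, and pan5, in the same subtelomere, read 0.17 in clr3-CDx2 OFF and 0.83 in wt OFF (-0.66). A short run on the left arm of chromosome II, 1.5 kb from 76200 to 77400 by SPBPB21E7.09, read 3.64 in clr3-CDx2 OFF and 0.79 in wt OFF (2.84), and its ON difference was 1.71. SPAC977.14c, at array position 60600 of chromosome I, read 3.70 in clr3-CDx2 OFF and 1.78 in wt OFF (1.91), with 2 of its 3 tiles repeated, and its ON difference was 1.85.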
